A study of Mus musculus with 4 samples.

Results

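The 9 genes examined here are markers of monocytes and of the interstitial macrophages of the lung, listed by gene name. Ly6c1, Ly6c2, Cd14, Fn1 and Nr4a1 were taken as the 5 monocyte markers, and Lyve1, Folr2, Pf4 and Tmem119 as the 4 interstitial macrophage markers. They were read in alveolar macrophage RNA of wild-type (WT) mice and of animals without the transcription repressor Bach2 (Bach2KO). Probes were assigned through the RefSeq accession carried by each array row. Of the 9 genes 8 had a probe and all 8 were measured, among 19751 genes on the array and 15123 measured. The transcripts read were NM_010741 (Ly6c1), NM_009841 (Cd14), NM_010233 (Fn1), NM_010444 (Nr4a1), NM_053247 (Lyve1), NM_008035 (Folr2), NM_019932 (Pf4) and NM_146162 (Tmem119). No array row carried an accession of Ly6c2, so it was not analysed here.

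Macrophages of the lung occupy separate compartments. Alveolar macrophages live in the airspaces, derive largely from fetal precursors and renew locally, and express Siglecf, Marco and the regulator Pparg. Interstitial macrophages lie in the tissue around airways and vessels, are replenished in part from blood monocytes, and include a perivascular subset that carries Lyve1 and Folr2. Classical monocytes carry surface Ly6C and the chemokine receptor Ccr2, and patrolling monocytes depend on the nuclear receptor Nr4a1. Comparing these genes between genotypes asks whether transcripts of those other compartments differed in the sorted alveolar macrophages.

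The WT pool held cells of 8 mice. The Bach2KO pool held cells of 4 by the treatment protocol but of 3 by the series design text, and both were sorted by flow cytometry. Strain, sex, age, the sorting gate and the nature of the Bach2 deletion are not given in the sources used here. A single RNA sample of each genotype was divided in 2 ahead of amplification and labelling with Cy3, for a total of 4 arrays, 2 of WT and 2 of Bach2KO. Arrays of the same genotype are therefore technical repeats, no difference between the genotypes has a replicate check or a p-value, and each SD is over 2 arrays of 1 RNA sample. In pooled RNA, fewer cells of a type and less RNA per cell cannot be told apart.

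A gene counts as measured where its probe was well above background on both arrays of WT, of Bach2KO or of both. Values are log2 processed signals relative to the 75th percentile of the array, so that 1 unit is a 2-fold difference. A gene was called higher in Bach2KO where each Bach2KO array exceeded each WT array at least 2-fold (4 pairs), and lower where the reverse held. A probe not well above background on either array of a genotype has only a bound there, and its gene was called only where the bound also reached 2-fold. Each array had between 27126 and 27918 of its 39429 probes well above background. Over genes, arrays of WT differed with an SD of 0.26, those of Bach2KO with 0.21 and the genotype means with 1.16. The only Bach2 probe was well above background on 1 array of each genotype, with log2 signals of -6.32 and -6.28 in WT and of -5.16 and -8.13 in Bach2KO, so it gave no check of the labels. All 28 alveolar macrophage markers examined were well above background on every array, of which 10 were lower and 2 higher. Over all measured genes 5.89% were lower and 8.38% higher. Of the markers named above, Siglecf was 12.6-fold lower and Marco 3.61-fold lower, and Pparg differed by -0.10. Both arrays of each genotype were neighbours on the same slide, and the place on it cannot be told apart from the genotype.

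Set beside each other, the interstitial macrophage markers were all brighter in Bach2KO, whereas the monocyte markers went in both directions. Ly6c1, Lyve1 and Pf4 were called higher and Nr4a1 lower, and Cd14, Fn1, Folr2 and Tmem119 met neither condition. The monocyte set thus had 1 gene higher and 1 lower of 4 measured, and the interstitial set had 2 higher and none lower of 4. Lyve1 and Folr2, however, counted as measured only through Bach2KO, so they could hardly come out dimmer there. Where all 4 arrays had to be well above background, only Pf4 and Tmem119 were left of the interstitial set. Both were brighter in Bach2KO and 1 of the 2, Pf4, was called higher, while the monocyte counts stayed the same. Over all measured genes 8.38% were called higher and 5.89% lower, 14.3% in all, against 4 of the 8 markers. The median difference was 0.06 for the monocyte markers, with a range from -2.06 to 2.48, and 0.06 for all measured genes. For the interstitial markers the median was 1.41, or 1.05 with dim genes at their bound, and the range was from 0.83 to 3.01. With scaling to spike-in probes, which lowered every difference, the medians were -0.66 and 0.69 beside -0.66 for all genes. Only Ly6c1 was then called higher and only Nr4a1 lower, where 4.15% of all genes were called higher and 21.3% lower, or 25.4% in all. The 2 WT and the 2 Bach2KO values did not overlap for any of the 8 measured genes, but that also held for 85.1% of all measured genes, with Bach2KO above WT for 45.6% and below for 39.5% of them all.

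**Figure D1:**
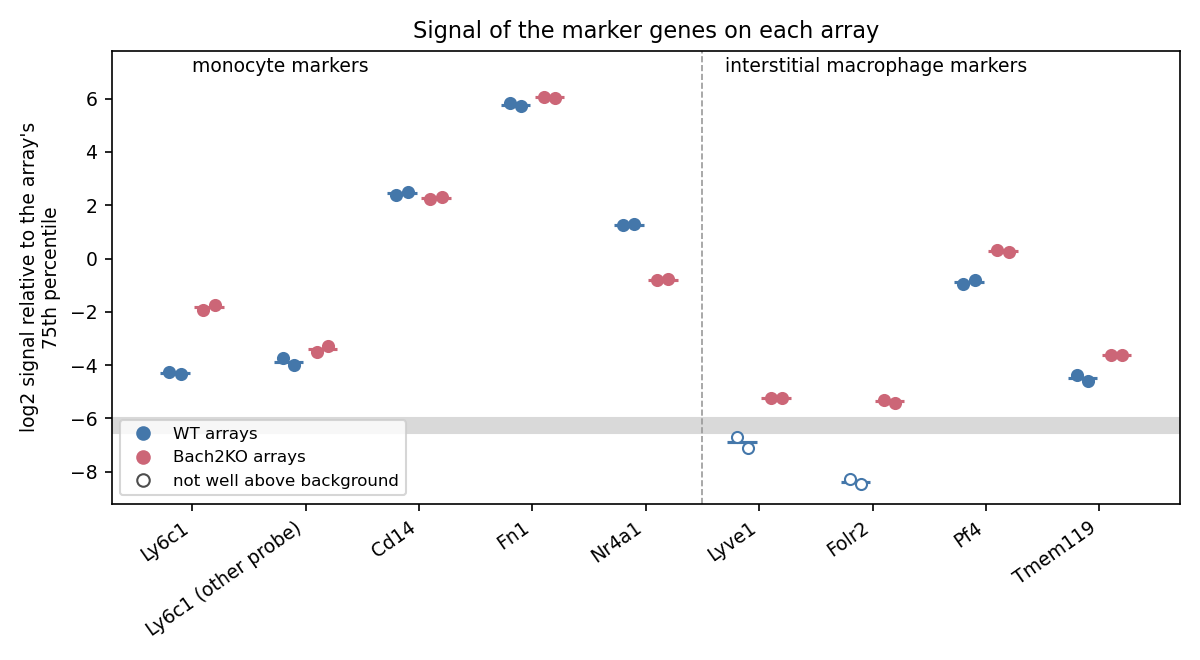
Log2 signal of each marker gene relative to the 75th percentile of its array (y axis) on the 2 WT arrays (blue) and the 2 Bach2KO arrays (red), with a line at each mean. Open points were not well above background, the grey band spans the lowest signals well above background on the 4 arrays (-6.56 to -5.98), and heights may be compared within a gene but not between genes. Ly6c1, Lyve1, Folr2, Pf4 and Tmem119 were brighter on both Bach2KO arrays, Nr4a1 was dimmer, and Cd14 and Fn1 lay close together. The other Ly6c1 probe differed much less than the one that represents the gene.

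Ly6c1 and its close copy Ly6c2 encode Ly6C, a small cell-surface protein anchored by a lipid. Ly6C is abundant on classical monocytes and also found on endothelial cells and some T cells. Ly6c1 was read by a pair of probes, both assigned to transcript NM_010741, and they gave different answers. Probe A_55_P2064771 represents the gene as the brighter over the 4 arrays, though it was the dimmer of them in WT. It was thus chosen through its Bach2KO signal, which favours a higher call. Its log2 signals were -4.25 and -4.34 in WT and -1.91 and -1.73 in Bach2KO. Both Bach2KO arrays stood well above both WT arrays, by 2.33 to 2.62 in the 4 pairs, and the mean difference of 2.48 is a 5.56-fold higher signal. Probe A_55_P1961499 had -3.74 and -4.00 in WT and -3.51 and -3.26 in Bach2KO. The genotypes were close on this probe, with a mean difference of 0.49 and pairs between 0.23 and 0.74, and it was not called. Neither probe was dim on any array. The distance of 1.99 between the probes was matched or exceeded by 3.33% of the 3759 genes with several measured probes. With the mean of both probes Ly6c1 differed by 1.48 and was still called higher.

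Because Ly6c1 and Ly6c2 are close copies, either probe may also bind Ly6c2 transcripts, and the call of Ly6c1 is uncertain as to the gene. Windows of 250 bases before the transcript starts of both genes were aligned (RefSeq promoter table, GRCm38.p6). The best pair, before 75048837 (Ly6c1) and 75111971 (Ly6c2) on the minus strand of chromosome 15, had 164 identical bases of 216 aligned, or 75.9%. A further 68 bases fell in gaps, and the other pairs had between 53.2% and 60.2%. Likeness of promoters says nothing of what the probes bind. Both genes lie in the Ly6 cluster on that chromosome. Of the other Ly6 family genes 17 of 20 on the array were measured, of which 1 was higher and none lower (1 and 1 with spike-in scaling), with a median of 0.32. The called gene was Ly6a, the stem cell antigen Sca-1, which was not well above background in WT and at least 5.07-fold higher in Bach2KO. That call was lost with normexp background correction, under which none of these 17 genes was called. Normexp here adds an offset of 50 intensity units to each signal, which shrinks the differences of dim genes. The loss of the Ly6a call may thus come from the offset alone. Ly6i had -2.40 and -2.66 in WT and -2.18 and -2.03 in Bach2KO, and the broadly expressed Ly6e differed by 0.27.

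Ly6c1 is also made by vessel endothelium, and endothelial markers were examined beside it. Of 12 such markers 8 were measured, of which 2 were higher and 1 lower, and their summed linear signal ranged from 29.0 to 31.2 in WT and from 8.46 to 8.92 in Bach2KO (in units of the array's 75th percentile). Flt1 alone carried that fall, as the other 7 genes summed to between 6.03 and 6.44 in WT and between 7.91 and 8.39 in Bach2KO, and the median difference of the 8 was 0.26. The cadherin gene Cdh5 was 21.3-fold higher and the receptor gene Flt1 43.9-fold lower. The other higher gene, Esam, counted as measured only through Bach2KO and had a bound of 2.11-fold. Where all 4 arrays had to be well above background, 1 of 7 endothelial markers was higher and 1 lower. Median centring, quantile normalization, spike-in scaling and normexp each gave 1 higher and 1 lower of the 8. Pecam1 differed by 0.19, and Tek, Emcn, Tie1 and Robo4 were not measured. T cell markers, all 12 measured, had 5 higher and 1 lower, beside 8.38% and 5.89% of all measured genes. Where all 4 arrays had to be well above background, 2 of 9 T cell markers were higher and 1 lower. Genes such as Il7r and Cd3d then drop out, as they counted as measured only through Bach2KO. The cytokine receptor gene Il7r was at least 361-fold higher, the T cell receptor subunit gene Cd3d at least 6.16-fold higher and the adhesion gene Cd2 3.81-fold lower. Their summed signal ranged from 61.5 to 62.0 in WT and from 28.3 to 28.8 in Bach2KO. Without Cd2 the other 11 summed to between 7.05 and 7.89 in WT and between 14.1 and 14.4 in Bach2KO, and the median difference of the 12 was 0.85. Il7r, with log2 signals of 2.17 and 2.12 in Bach2KO, made up most of that rise in the sum. The part of these cell types in the Ly6c1 difference was not tested.

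Nr4a1 encodes an orphan nuclear receptor that is induced within minutes of stimulation, is required for patrolling monocytes and restrains inflammatory gene expression in macrophages. It was the only marker that was lower. Its log2 signals of 1.27 and 1.29 in WT and of -0.80 and -0.78 in Bach2KO were nearly the same within each genotype. The 4 pairs lay between -2.09 and -2.04, and the mean difference of -2.06 is a 4.18-fold lower signal. Only 2.02% of measured genes had a more negative difference. Nr4a1 was called lower in each of the 19 alternatives run, with differences between -2.79 (spike-in scaling) and -1.88 (normexp). Many of these could not change the call. With all 4 pairs beyond 2-fold, a lower threshold, array means, fewer pairs or omission of an array had to repeat it. So did the filters and the probe rule, since its only probe was well above background on every array.

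The sequence before the Nr4a1 start is shown because the gene is known to be driven by cyclic AMP response elements, and because it is the marker that was lower. The 250 bases come from the RefSeq promoter table (GRCm38.p6, chr15:101266596-101266845, plus strand), and capitals mark matches to TGCGTCA, a variant of that element.
Nr4a1: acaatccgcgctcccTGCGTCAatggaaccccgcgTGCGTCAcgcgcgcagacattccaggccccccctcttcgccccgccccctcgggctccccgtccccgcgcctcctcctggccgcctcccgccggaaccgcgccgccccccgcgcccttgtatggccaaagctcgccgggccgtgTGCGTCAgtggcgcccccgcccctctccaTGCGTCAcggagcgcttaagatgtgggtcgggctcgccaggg
There were 4 matches, the nearest of them 42 to 36 bases before the start and the others at 71 to 65, 215 to 209 and 235 to 229. Searched on both strands, 1.75% of the 32851 promoters of this length in the table held TGCGTCA at all, and 1 held 4 or more. The GC box GGGCGG, not in capitals, matched 3 times in the Nr4a1 window and was in 32.7% of all promoters. The window had no match to the full element TGACGTCA (1.55% of all promoters) or to TGANTCA (6.75%), the core shared by sites of AP-1 and of Bach2 with small Maf proteins. A match or its absence in this window says nothing of binding.

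Genes induced with Nr4a1 did not share its direction as a set. Of 18 related and immediate early genes on the array 16 were measured, of which 4 were higher and 2 lower, with a median of -0.04. Spike-in scaling gave 2 higher and 7 lower. The antiproliferative gene Btg2 was lower like Nr4a1, with 0.70 and 0.71 in WT and -1.61 and -1.51 in Bach2KO, a 4.81-fold difference. Ier3, an early gene that protects cells from apoptosis, was 12.6-fold higher, and Dusp2, a phosphatase that switches off MAP kinases, was 5.01-fold higher. The family member Nr4a2 differed by 0.40 and met neither condition, and Nr4a3 was not measured.

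Cd14 encodes the co-receptor that hands bacterial lipopolysaccharide to Tlr4 and Ly96. Its log2 signals were 2.39 and 2.51 in WT and 2.25 and 2.32 in Bach2KO. The genotypes lay within 0.26 of each other in all pairs, with a mean difference of -0.16. With spike-in scaling the difference was -0.89, beside -0.66 for the median gene. Of 16 genes of the lipopolysaccharide receptor complex and its signalling, all measured, 3 were higher and none lower, with a median of 0.05. Tlr1, a partner of Tlr2 in sensing bacterial lipopeptides, was not well above background in WT and at least 15.3-fold higher. Lbp, the carrier that delivers lipopolysaccharide to CD14, was at least 3.57-fold higher, and Ly96, which binds it beside Tlr4, was 2.11-fold higher. Tlr4 itself differed by -0.03. With spike-in scaling 2 of the 16 were higher and 3 lower.

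Fn1 encodes fibronectin, a matrix glycoprotein that monocytes begin to make as they become macrophages and that alveolar macrophages also produce. Its signals were 5.83 and 5.71 in WT and 6.08 and 6.03 in Bach2KO. The Bach2KO arrays were slightly brighter, by 0.20 to 0.36 in the 4 pairs, and the mean difference of 0.28 was not called. With spike-in scaling its sign turned to -0.44. Fibronectin-binding receptors and partner proteins went higher where they were called, with 5 of 13 measured genes higher and none lower. Itgb3, the integrin subunit that binds fibronectin and vitronectin with the alpha v chain, was not well above background in WT and at least 176-fold higher. Thbs1, a matrix protein that activates TGF-beta, was at least 21.6-fold higher in the same way, and Spp1, the integrin ligand osteopontin, had means of 2.75 in WT and 6.42 in Bach2KO, 12.8-fold higher. The integrin chains of the classical fibronectin receptor differed by 0.44 (Itga5) and 0.16 (Itgb1) and met neither condition. With spike-in scaling 4 members of this list were higher and 1 lower.

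**Figure D2:**
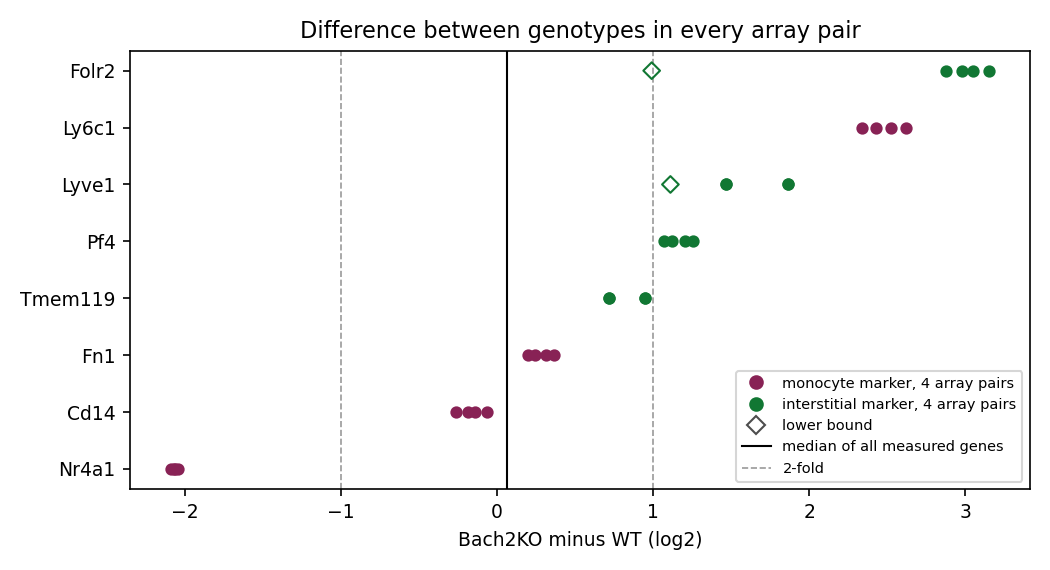
Difference in log2 signal, Bach2KO minus WT (x axis), of each measured marker in each of the 4 array pairs, with monocyte markers in purple and interstitial macrophage markers in green. Open diamonds are lower bounds, dashed lines mark 2-fold and the solid line the median of all measured genes (0.06), and points of Lyve1 and Tmem119 coincide in twos. The interstitial markers lie to the right of the solid line, and Nr4a1 lies far to the left with hardly any spread.

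Lyve1 encodes a hyaluronan receptor of lymphatic endothelium that also marks perivascular interstitial macrophages. It was not well above background on either WT array, with signals of -6.70 and -7.10, and was so on both Bach2KO arrays, with -5.24 and -5.24. The Bach2KO values were only a little above the lowest signals well above background on those arrays (-6.18 and -5.98). The measured means differed by 1.67, and as a bound Lyve1 was at least 2.17-fold higher. The call was lost with quantile normalization (bound 0.94 on the log2 scale), spike-in scaling (0.39), normexp (0.62) and without WT array 2 (0.90). Normexp could hardly test this call. Its offset of 50 intensity units exceeded the processed Lyve1 signal on every array (11.1 to 27.5 units) and so held any difference down. 

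Markers of lymphatic endothelium, another known source of Lyve1, were examined beside it. Prox1, Flt4, Reln and Mmrn1 were not measured, and 2 of the 6 markers were measured. Of those Pdpn, the membrane glycoprotein podoplanin that macrophages can also make, was 10.6-fold higher, and the chemokine gene Ccl21a differed by -0.39. The part of lymphatic endothelium in the Lyve1 difference was not tested. Among other receptors and enzymes of hyaluronan 2 of 10 measured genes were higher and none lower, or 2 and 2 with spike-in scaling. The scavenger receptor gene Stab1, well above background on 1 of 2 WT arrays, was 5.08-fold higher, and the lysosomal hyaluronidase gene Hyal1, likewise on 1, was 4.46-fold higher. Cd44, the main hyaluronan receptor of leukocytes, differed by -0.41.

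Folr2 encodes folate receptor beta, a folate-binding surface protein of tissue-resident macrophages. Its WT signals of -8.29 and -8.46 were not well above background, and its Bach2KO signals of -5.31 and -5.41 were. All 4 pairs differed by 2.87 to 3.15, and the mean difference was 3.01. Measured against the lowest signals well above background in WT, however, Folr2 was at least 1.98-fold higher, just under the 2-fold condition, and was not called. Of 258 genes with 4 pairs at least 2-fold higher and no WT signal well above background, 36 fell short of the bound in this way. Folr2 was called higher in the authors' deposited value table (bound 1.02 on the log2 scale), with the 75th percentile taken over probes (1.02), without WT array 1 (at least 2.3-fold), without Bach2KO array 2 (1.04), at a 1.5-fold threshold and with no filter on dim probes. With normexp the difference itself was 0.75. There too the offset of 50 intensity units exceeded the processed Folr2 signal on every array (4.06 to 26.1 units) and held the difference down.

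The promoter window of Folr2 is shown because it was the only one of the marker windows examined with a match to TGANTCA, the core of AP-1 and Bach2 sites. Not every marker had its window examined. It comes from the RefSeq promoter table (GRCm38.p6, chr7:101845332-101845581, minus strand, written 5′ to 3′ along the gene), ends at the base before the downstream of the gene's 2 listed starts, and has the match in capitals.
Folr2: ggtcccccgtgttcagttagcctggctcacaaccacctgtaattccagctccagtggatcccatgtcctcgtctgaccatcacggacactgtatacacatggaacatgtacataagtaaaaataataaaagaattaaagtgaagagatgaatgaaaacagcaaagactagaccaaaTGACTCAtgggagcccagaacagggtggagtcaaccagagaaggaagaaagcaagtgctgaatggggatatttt
The match lies 74 to 68 bases before that start, and 6.75% of all promoters of this length hold such a match on either strand. The window before the other Folr2 start had no match. Other folate receptors were not called, with differences of 0.35 for Folr1 and -0.44 for Izumo1r. Of 13 genes of folate uptake and metabolism, all measured, 2 were higher and none lower, Mthfd2, the mitochondrial one-carbon enzyme (2.19-fold), and Ggh, a lysosomal hydrolase of folate polyglutamates (2.17-fold), whereas spike-in scaling gave none higher and 3 lower.

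Pf4 encodes platelet factor 4, a CXC chemokine stored in platelet granules and also made by interstitial and other resident macrophages. Its signals were -0.95 and -0.82 in WT and 0.31 and 0.26 in Bach2KO. Both Bach2KO arrays were above both WT arrays, by 1.07 to 1.25, and the mean difference of 1.16 is a 2.24-fold higher signal. The gene was well above background on all 4 arrays. Its call lay close to the condition and was lost with median centring (1.06), normexp (1.02) and spike-in scaling (0.44), while the difference kept its sign.

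The bases before the Pf4 start are given since it is the interstitial marker with a call that does not rest on a bound. They come from the RefSeq promoter table (GRCm38.p6, chr5:90772185-90772434, plus strand), with a match to GAGGAAGT, the site of the myeloid factor PU.1, in capitals on the opposite strand.
Pf4: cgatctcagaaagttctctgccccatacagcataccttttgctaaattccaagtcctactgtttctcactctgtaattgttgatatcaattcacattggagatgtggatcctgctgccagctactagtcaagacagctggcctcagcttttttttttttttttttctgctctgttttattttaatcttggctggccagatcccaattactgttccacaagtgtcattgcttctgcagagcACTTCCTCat
The match lies 10 to 3 bases before the start, and 2.44% of all promoters of this length hold GAGGAAGT on either strand. It was also present before 1 of the 2 Ly6c1 starts, 127 to 120 bases upstream, and before both Ly6c2 starts. The GATA site AGATAA, present in 9.99% of promoters, had no match in the 8 windows examined, which were of Ly6c1, Ly6c2, Nr4a1, Folr2 and Pf4. Windows of the other markers were not examined.

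Since Pf4 is abundant in platelets, platelet and megakaryocyte genes were read beside it. Of 15 such genes 10 were measured, of which 1 was higher and none lower (none and 2 with spike-in scaling), with a median of 0.20. The adhesion factor gene Vwf was 2.56-fold higher, the call that spike-in scaling ended. Ppbp, the chemokine stored with Pf4, and the platelet receptor genes Itga2b, Gp9, Gp1ba and Gp6 were not measured. The summed linear signal of the 10 genes ranged from 15.9 to 16.1 in WT and from 26.8 to 27.1 in Bach2KO. Without Vwf the other 9 summed to between 7.40 and 7.72 in WT and between 5.25 and 5.32 in Bach2KO. That fall was carried by Clec1b, the brightest of the 9 and not called. Its log2 signals were 2.60 and 2.58 in WT and 1.58 and 1.57 in Bach2KO. Nfe2, the next brightest, differed by 0.74 in the other direction and was not called. The part of platelets in the Pf4 difference was not tested.

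Tmem119 encodes a transmembrane protein best known as a marker of microglia, and found in bone-forming cells and in some interstitial macrophages. It had -4.35 and -4.58 in WT and -3.63 and -3.63 in Bach2KO. All 4 pairs were brighter in Bach2KO, by 0.72 to 0.95, and the mean difference of 0.83 was a 1.78-fold higher signal that was not called. With spike-in scaling it was 0.11. Other microglia markers went in both directions, with 3 higher and 3 lower of 11 measured. The lipid receptor gene Trem2 was 5.64-fold higher and the fatty acid receptor gene Gpr84 11.2-fold higher, while Gpr34, a lysophosphatidylserine receptor, was 17.0-fold lower. Sall1, the regulator that defines microglia, was not measured. The osteoblast regulators differed by -1.09 (Runx2, called lower) and 0.39 (Sp7).

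**Figure D3:**
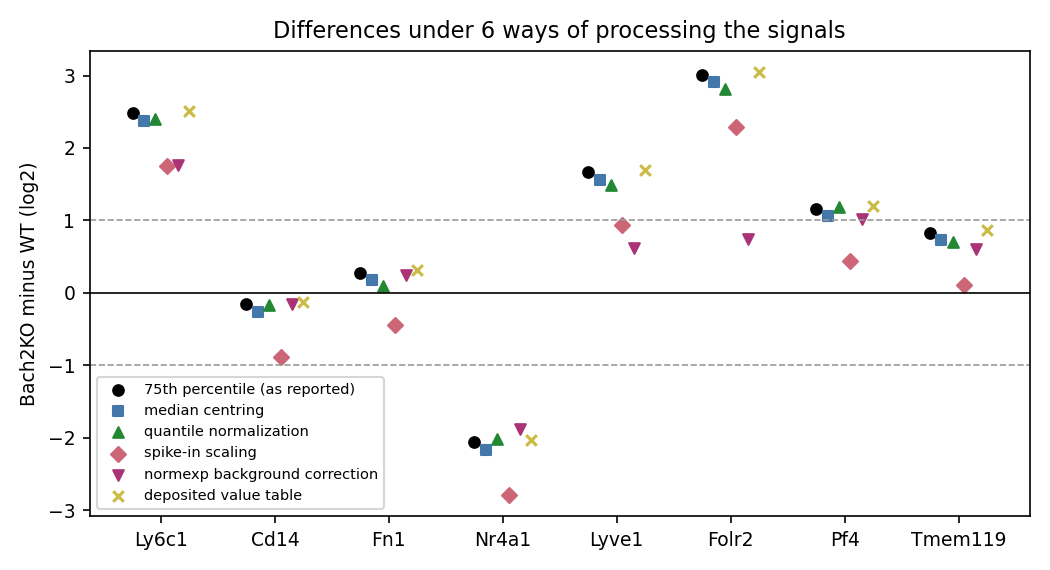
Difference in log2 signal, Bach2KO minus WT (y axis), of the 8 measured markers under 6 ways of processing the array signals, with dashed lines at 2-fold. Ly6c1 and Nr4a1 stay beyond 2-fold under each of them, Fn1 changes sign with spike-in scaling, and Lyve1 and Folr2 drop to 0.62 and 0.75 with normexp background correction. The offset of 50 intensity units in normexp exceeds the processed signals of Lyve1 and Folr2 on every array and shrinks their differences. Ly6c1 is shown by 1 of its 2 probes, and the other was not called.

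Wider marker lists of both compartments, which do not include the 9 genes, were read in the same way. Of 24 other monocyte markers, all measured, 6 were higher and 5 lower, with a median of 0.04. F13a1, the transglutaminase subunit of coagulation factor XIII, was not well above background in WT and at least 24.9-fold higher, and the haemoglobin scavenger gene Hp was 16.3-fold higher. In the other direction, the orphan receptor gene Gpr141 was not well above background in Bach2KO and at least 22.9-fold lower. Ccr2, the receptor that brings classical monocytes into tissue, had -2.27 and -2.30 in WT and -4.26 and -4.53 in Bach2KO, and Treml4, a marker of patrolling monocytes, was 3.85-fold lower. Ccr2 and Treml4 were chosen for mention after their values were seen. Spike-in scaling gave 3 higher and 10 lower of the 24, and normexp 3 and 4.

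Of 20 other interstitial macrophage markers measured, 10 were higher and 1 lower, with a median of 1.36. Gas6, a ligand that bridges apoptotic cells to phagocytes, had -4.58 and -4.84 in WT and -0.16 and -0.06 in Bach2KO, 24.3-fold higher. C1qa, a subunit of the first complement component, was 17.0-fold higher. The scavenger receptor gene Mrc1, shared by both kinds of macrophage, differed by -0.15. Cd163, Timd4 and Tmem176a were not measured. Unlike the calls of Lyve1 and Pf4, the count of 10 higher genes was the same with median centring, quantile normalization, spike-in scaling and normexp. It was 8 of 18 where all 4 arrays had to be well above background.

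**Figure D4:**
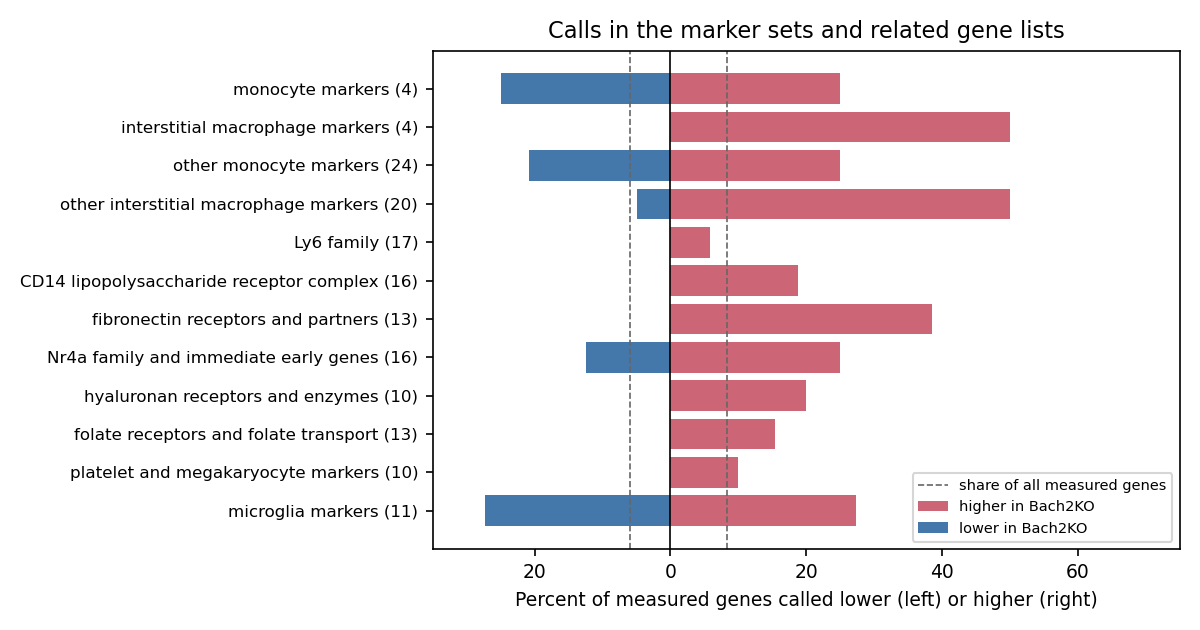
Percent of measured genes called higher (red, to the right) or lower (blue, to the left) in Bach2KO for the monocyte and interstitial macrophage markers and the related gene lists, with the number measured in brackets and dashed lines at the shares of all measured genes (8.38% and 5.89%). The interstitial lists have 2 of 4 and 10 of 20 genes higher, and the monocyte lists have bars on both sides.

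Markers of granulocytes and dendritic cells, which a lung sort could also hold, were read in the same way. Of 10 neutrophil markers measured 3 were higher and 1 lower, with a summed signal from 44.4 to 45.8 in WT and from 55.6 to 56.0 in Bach2KO, and Ngp and Mmp9 were not measured. Without Csf3r, the brightest, the other 9 summed to between 6.02 and 6.15 in WT and between 24.1 and 26.1 in Bach2KO. S100a8 alone carried most of that rise, with log2 signals of 0.47 and 0.41 in WT and 4.14 and 4.26 in Bach2KO. The calprotectin genes S100a8 and S100a9, which monocytes share with neutrophils, were 13.5-fold and at least 32.5-fold higher. Where all 4 arrays had to be well above background, S100a9 dropped out, and 1 of 8 neutrophil markers was higher and 1 lower. Of 7 dendritic cell markers measured 2 were higher and none lower, with summed signals from 53.7 to 61.6 in WT and from 46.1 to 46.3 in Bach2KO. Their median difference was 0.20, and without Siglech, the brightest and not called, the other 6 summed to between 6.42 and 6.51 in WT and between 11.4 and 11.6 in Bach2KO. Among 6 B cell markers 1 was higher, among 9 of fibroblasts and osteoblasts 1 was higher and 1 lower, and among 8 of epithelium 2 were higher and 1 lower. That last gene, the epithelial adhesion molecule gene Epcam, was at least 98.0-fold lower. Over all measured genes the shares were 8.38% higher and 5.89% lower. With the filter on all 4 arrays, none of 5 B cell markers was higher. Of 6 fibroblast and osteoblast markers none was then higher and 1 lower, and of 5 epithelial markers 1 was higher and none lower. The higher genes Cd79b, Pdgfra and Sftpb had counted as measured only through Bach2KO, and Epcam only through WT. The part of these cell types in the marker differences was not tested.

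For each marker well above background on all 4 arrays, the genes with the most similar pattern were found by the root mean square distance of log2 signals after each gene was centred on its own mean over the 4 arrays. Because the arrays come from 2 RNA samples, this likeness mainly measures an equal difference between genotypes. Nearest to Ly6c1 were Olfr807 and St6galnac5, at distances of 0.03 and 0.03, and 36 of 13725 genes lay within 0.1. For Nr4a1 they were Gramd4 and Lilra5, both at 0.02, and 71 genes lay within 0.1. Near Pf4 lay Ppip5k1 at 0.01, with 239 genes within 0.1, and for Tmem119 they were Col15a1 and Chmp7 at 0.02 and 0.03, with 387. Cd14 and Fn1, which hardly differed, had 2192 and 2123 genes within 0.1, the nearest being St3gal2 and Prrc2a for Cd14 and Nhp2 and Ppm1b for Fn1.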

How the data were processed

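RNA of 1 pool of sorted alveolar macrophages per genotype was hybridised to 4 one-colour Agilent arrays. The deposited scanner files give linear spot intensity, processed by Feature Extraction (background subtraction and detrending, per the file headers) without scaling between arrays. Its version is 10.7.3.1 per the file headers and 9.1 per the submitters' processing notes. The authors' deposited value table holds log2 values, which equalled the log2 processed signal of each array minus a constant (SD at most 3.5e-07 over 39030 probes with 1 spot). Its column medians were -3.58, -3.67, -3.53 and -3.45.

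Control spots and spots marked as outliers (109 to 136 of 43020 per array) were left out, spots of a probe were averaged as log2, and the 75th percentile over spots (979 to 1517 intensity units) was subtracted. No spot was saturated. The number of arrays limits the precision. A probe was used if both arrays of either genotype had it well above background. Gene symbols came through unversioned accessions from a RefSeq table (GRCm38.p6), which matched 26055 of 39429 probes to 1 symbol and left 13374 unnamed. Coordinates of probes are not given, since the design rests on mm9, and those of promoter windows are of GRCm38.p6. Each gene was represented by its brightest probe over the 4 arrays. A bound used, per array, the dim probe's signal or, if higher, the lowest one well above background. No test was possible with 1 RNA sample per genotype.

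Named genes were the markers, up to 3 called genes per list by size (with none called, the brightest), and 2 nearest genes per marker, of which some are not reported here. Further list members are given where they are the partner or counterpart of a marker or weigh heavily in a summed signal. Siglecf, Marco and Pparg are given as the named alveolar macrophage genes. All of these were chosen with their values known. The markers and lists were chosen with earlier results of these data known. Alternatives were other scalings (median, quantile, 9 spike-in probes, 75th percentile over probes), normexp correction (limma 3.58.1, offset 50, median spot signals), the deposited table, other filters, thresholds and probe rules, a block for replicate number, and omission of each array.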

Additional observations from a re-analysis of the deposited data

How the results depend on the processing

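Nr4a1 was called lower and Ly6c1 higher under all 19 alternatives, whereas Lyve1 and Pf4 lost their calls under some and Folr2 gained one. Alternatives that only loosen the rule or use fewer array pairs could not change the calls of Nr4a1 and Ly6c1. No alternative read Ly6c1 by its other probe alone, which was not called. The number of markers called higher, 3 as reported, was 1 with spike-in scaling, 1 with normexp, 1 at 3-fold and 5 at 1.5-fold, and between 2 and 4 when each array was left out. The count of markers called lower was 1 throughout. The normexp count could hardly include Lyve1 or Folr2, whose processed signals lay below the offset of 50 intensity units on every array. The normexp median of the interstitial markers is held down in the same way. Over all genes, the 1268 higher and 890 lower became 627 and 3214 with spike-in scaling, 2239 and 1932 at 1.5-fold and 696 and 409 at 3-fold. Calls were higher in 58.8% as reported and in 16.3% with spike-in scaling. The median of the monocyte markers, 0.06, was -0.04 with median centring, -0.04 with quantile normalization, -0.66 with spike-in scaling, 0.04 with normexp, 0.09 in the deposited table and 0.09 with the 75th percentile over probes, which was added after the data were seen. That of the interstitial markers, 1.41, was 1.31 with median centring, 0.69 with spike-in scaling, 0.69 with normexp and 1.0 where all 4 arrays had to be well above background, as Lyve1 and Folr2 then drop out. Leaving out each array gave 0.05 to 0.07 and 1.35 to 1.48. Spike-in scaling lowered every difference by the same amount. Relative to the 75th percentile, the spike-in probes stood at 0.41 and 0.30 in WT and at 1.01 and 1.14 in Bach2KO (log2). The reason for that, and the cause of the remaining changes, was not tested.

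With the replicate number as a block, using only the pairs of arrays with the same number, 1304 genes were higher and 912 lower, with the same 3 and 1 markers by count and medians of 0.06 and 1.41. Arrays with the same number deviated together with a correlation of -0.14, and the crossed pairing, added after seeing the data, gave 1341 and 943. The numbers mark parts of an RNA sample and do not pair animals. Signal over background limits Lyve1 and Folr2, which were not well above background in WT. It limits several lists in the same way. Where all 4 arrays had to be well above background, 3 of 11 fibronectin partners and 1 of 14 genes of the lipopolysaccharide receptor list were higher. None of 8 hyaluronan genes was then higher, while the folate list kept 2 of 13.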
